A study of Mus musculus with 8 samples.

Results

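Glycolysis, lactate handling, the pentose phosphate pathway and glycogen were followed in the mouse cornea through 41 genes out of 54532 listed. They were picked by name for their role, with earlier results of these data known. The 41 genes encode glucose transporters, the enzymes of glycolysis with the enzymes that set its speed, lactate dehydrogenase and a lactate exporter, the kinases of pyruvate dehydrogenase, the pentose phosphate enzymes and the enzymes that build and break down glycogen. All 41 were found in the table and all 41 passed the filter on low values (a mean of at least 0), so none is missing from the counts given here.

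Total RNA of naive (untreated, uninjured) cornea was sequenced from 4 samples of male mice labelled BALB/c, the BALB/cN substrain in the study's methods, and 4 of male C57BL/6N mice. Whether each cornea came from a different mouse is not given in the sources used here. Both groups are wild-type inbred strains without transgene or treatment, each strain differs from the other at very many loci at once, and the labels used here give no age. The values are regularized logarithms (rlog), which are on a log2 scale, normalized for library size, and drawn towards the mean of the gene where reads are few, so that differences of weak genes come out too small. The table holds no counts, and none were used here, so no depth is given behind a value. Because nothing says that the corneas were handled independently apart from coming as separate samples, p-values measure the spread between these samples.

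In the cornea the avascular epithelium carries glycogen and relies strongly on glycolysis, which turns glucose into pyruvate and then lactate that has to leave the tissue. The pentose phosphate pathway branches off at glucose 6-phosphate: its oxidative arm makes NADPH, which keeps glutathione reduced in a tissue exposed to light and oxygen, and its non-oxidative arm, run by transketolase and transaldolase, returns sugar phosphates to glycolysis. Transketolase is known as one of the most abundant soluble proteins of the corneal epithelium. Many glycolytic genes are known targets of hypoxia-inducible factors, which bind short elements. Elements with the core ACGTG are among these, and only that form was searched here.

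The stretches upstream of the start of members called between the strains are shown because ACGTG lies there in some of them and not in others. Each is the 250 bases before a RefSeq start in GRCm38.p6, a build made from C57BL/6J, read 5′ to 3′ on the strand of the gene, with capitals for ACGTG or its reverse complement CACGT, which overlap in CACGTG, an E-box. Pfkfb3 has a downstream start with the window chr2:11502091-11502340 and an upstream start with chr2:11553930-11554179, both on the minus strand. Aldoa and Pdk2 have further starts, the windows of which are not shown. Among these, chr7:126800448-126800697 of Aldoa and chr11:95040876-95041125 of Pdk2 hold no match. The windows of Aldoa (chr7:126799255-126799504), Pdk2 (chr11:95041372-95041621) and Pygl (chr12:70227684-70227933) are on the minus strand as well, and that of Gbe1 (chr16:70313699-70313948) is on the plus strand and holds no match.
Pfkfb3, downstream start: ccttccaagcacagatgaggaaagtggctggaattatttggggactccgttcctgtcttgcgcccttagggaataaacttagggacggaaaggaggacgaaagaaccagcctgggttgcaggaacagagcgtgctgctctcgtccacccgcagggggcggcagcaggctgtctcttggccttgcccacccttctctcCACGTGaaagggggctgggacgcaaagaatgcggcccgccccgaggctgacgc
Pfkfb3, upstream start: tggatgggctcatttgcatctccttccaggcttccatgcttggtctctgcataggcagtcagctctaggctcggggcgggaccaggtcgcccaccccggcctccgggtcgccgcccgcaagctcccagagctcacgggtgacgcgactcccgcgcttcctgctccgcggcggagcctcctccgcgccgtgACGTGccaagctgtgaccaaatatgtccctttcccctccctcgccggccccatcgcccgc
Aldoa: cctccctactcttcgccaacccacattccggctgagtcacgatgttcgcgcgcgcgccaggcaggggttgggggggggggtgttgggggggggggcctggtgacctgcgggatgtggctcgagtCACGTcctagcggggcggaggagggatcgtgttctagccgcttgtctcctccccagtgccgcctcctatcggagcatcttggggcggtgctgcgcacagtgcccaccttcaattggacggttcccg
Pdk2: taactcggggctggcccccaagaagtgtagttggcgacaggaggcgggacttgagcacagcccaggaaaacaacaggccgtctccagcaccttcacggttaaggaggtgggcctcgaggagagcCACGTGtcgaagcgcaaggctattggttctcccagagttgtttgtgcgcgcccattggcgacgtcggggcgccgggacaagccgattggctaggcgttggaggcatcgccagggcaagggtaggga
Pygl: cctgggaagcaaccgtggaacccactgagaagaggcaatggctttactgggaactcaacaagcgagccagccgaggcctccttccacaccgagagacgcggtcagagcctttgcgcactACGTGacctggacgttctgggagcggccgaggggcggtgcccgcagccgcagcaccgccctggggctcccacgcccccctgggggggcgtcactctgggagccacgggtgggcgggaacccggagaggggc
Gbe1: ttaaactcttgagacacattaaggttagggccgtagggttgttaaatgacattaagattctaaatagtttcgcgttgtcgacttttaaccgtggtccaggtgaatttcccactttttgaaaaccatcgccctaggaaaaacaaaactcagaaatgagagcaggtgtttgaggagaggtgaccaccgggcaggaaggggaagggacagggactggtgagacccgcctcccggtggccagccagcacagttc
Searched on both strands, ACGTG was found in 21 of the 57 windows of the 40 members with a RefSeq entry (36.8%) and in 5444 of 32851 windows of all genes (16.6%). Counted by gene, 17 of the 40 members (42.5%) and 18.5% of all genes had it in at least 1 window. Of the 10 members called between the strains 4 had it (40.0%), and of the 30 others 13 (43.3%). Pfkl, Gpi1, Aldoc, Eno1 and Taldo1, called and without a match in any window, are not shown. The sequences are those of the reference strain. No BALB/cN sequence was compared.

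Genes called between the strains lay in glycolysis and its regulators, the pyruvate dehydrogenase kinases, the pentose phosphate pathway and glycogen. In the pentose phosphate pathway that was Taldo1 alone, a call lost whenever any 1 cornea was left out. At an adjusted p of 0.01 or less (limma with Benjamini-Hochberg adjustment over all 25402 genes tested), 10 of the 41 members were called, against 5.74% of all genes. Members called higher in BALB/cN were 7, against 2.83% of all genes, and members called lower were 3, against 2.91%. The members are well-expressed genes, in which calls are more frequent, so they were also set beside genes of their own level: 5 of 15 members with a mean rlog of 8 to 11 were called, against 8.9% of genes at that level, and 5 of 14 members at 11 to 14, against 9.96%. The median difference of the members was 0.22 on the rlog scale, higher in BALB/cN, and that of all genes 0.01. Means were higher in BALB/cN for 32 of the 41 members, against 52.8% of all genes. All 4 corneas of a strain lay on one side of the other 4 for 20 members, against 18.3% of all genes. The median, the count of higher means and the count of separated genes were not matched by level. With every cornea centred on its median, 27 members had the higher mean in BALB/cN, as did 7832 of 25402 genes.

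Called genes of different branches had different signs. Of the 29 genes of uptake, glycolysis, its regulators, lactate and pyruvate dehydrogenase kinases, 7 were called, each of them higher in BALB/cN. Of all genes 2.83% were called higher. The mean was higher in BALB/cN for 26 of the 29, against 52.8% of all genes. Of the 7 pentose phosphate genes 1 was called, lower in BALB/cN, and of the 5 glycogen genes 2 were called, both lower. Of all genes 2.91% were called lower. Both branches held means of either sign, higher in BALB/cN for 3 of the 7 pentose phosphate genes and 3 of the 5 glycogen genes. With p-values scaled to an empirical null estimated here, which is not the study's own recalibration and says nothing of what that calls, no member and none of the 25402 genes was called. There the smallest adjusted p of a member was 0.234 and 11 members had an unadjusted p under 0.05.

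**Figure D1:**
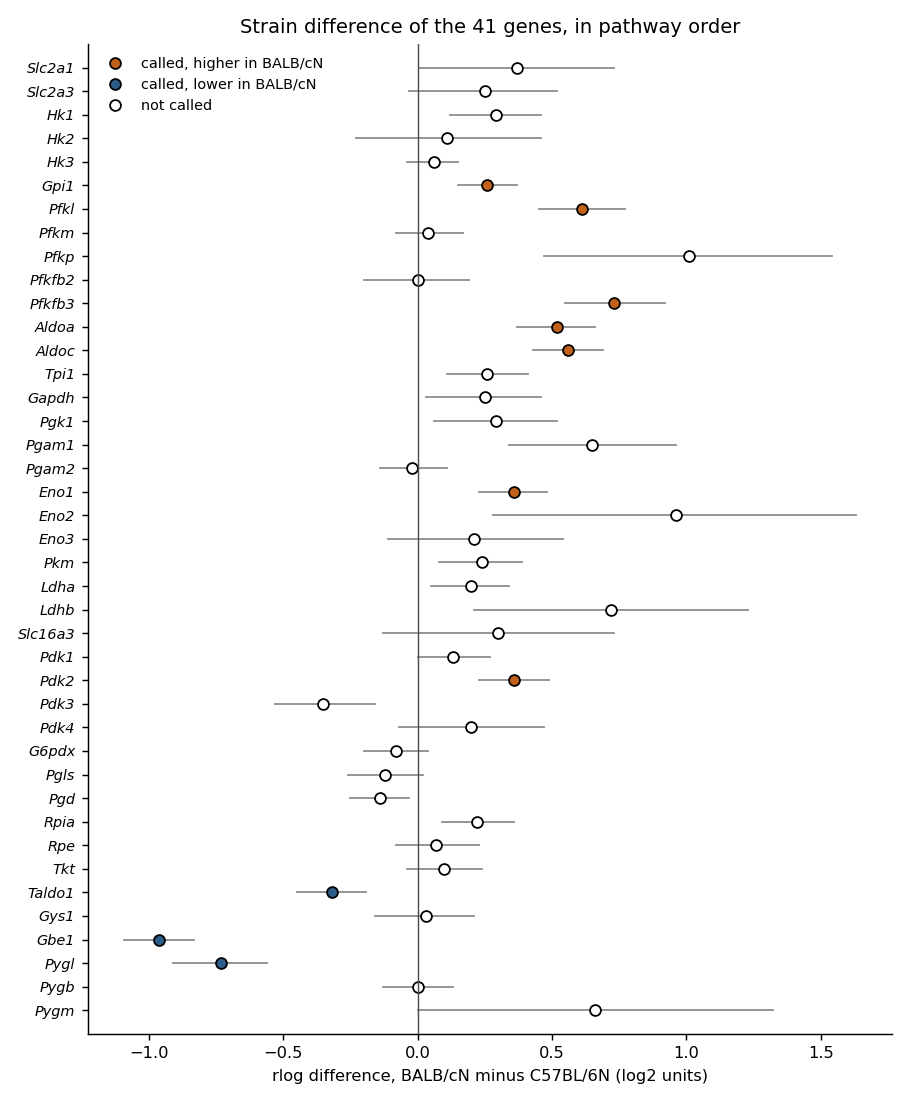
Difference of mean rlog between BALB/cN and C57BL/6N (horizontal axis, log2 units) for each of the 41 genes in the order uptake, glycolysis, lactate, pyruvate dehydrogenase kinases, pentose phosphate pathway, glycogen. Points are differences, lines are 95% confidence intervals from limma, and filled points were called; the 7 called genes on the right are 5 glycolytic enzymes, Pfkfb3 and Pdk2, and the 3 on the left are Taldo1, Gbe1 and Pygl.

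The corneas were not equal in composition. Corneal epithelium markers (10 genes, such as Krt12) had 1 call in each direction and a summed level (log2 of the summed 2 to the rlog) of 20.90 to 21.10 in BALB/cN and 20.94 to 21.09 in C57BL/6N. Stromal keratocyte markers (10 genes, such as Kera) were low in BALB/cN cornea 2 (16.85) and C57BL/6N corneas 3 and 4 (16.15 and 16.22), against 18.09 to 18.50 in the other 5. Of these genes Ptgds did not follow, with its lowest value, 6.42, in BALB/cN cornea 3, and Thy1 was at 2.95 to 3.49 throughout. Corneal endothelium markers were low in the same corneas (14.07, 13.92 and 13.67, against 14.62 to 14.98). So were vascular and lymphatic endothelium markers (9.34, 8.49 and 8.58, against 10.13 to 10.46). Lens markers (8 genes, none at 0) were high in BALB/cN corneas 1 and 4 (11.94 and 10.90), against 8.58 to 9.31 elsewhere, and so were pigment cell markers (13.57 and 14.55, against 9.09 to 11.71). Conjunctival markers (4 genes, none at 0) separated the strains, at 11.25 to 11.53 in BALB/cN and 13.41 to 13.87 in C57BL/6N, with Krt4, Krt13 and Krt19 called lower in BALB/cN, while Muc5ac had the opposite sign, 5.21 to 7.80 against 4.35 to 4.51, and was not called. Neutrophil markers separated the strains through S100a9 alone, with Ly6g, Retnlg and Cxcr2 at 0. Photoreceptor markers were also apart, at 7.76 to 8.14 in BALB/cN and 7.36 to 7.72 in C57BL/6N, with 0 called. In bulk tissue fewer cells of a type and less RNA per cell cannot be told apart, and the part of these cell types in the results was not tested. Without BALB/cN cornea 4 alone 6 members were called. Without the 3 stroma-poor corneas 5 members were called, namely Pfkl, Aldoc, Pdk2, Gbe1 and Pygl. Without the 2 lens-rich corneas 3 were called, namely Pfkfb3, Aldoc and Gbe1. Calls over all 25402 genes tested were 982, 852 and 447 in these settings, in that order, from 1458 with all corneas. With the stromal keratocyte mean as a covariate, 17 were called, 13 of them higher in BALB/cN, against 9.46% of all genes.

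Glucose enters through Slc2a1 (GLUT1) and Slc2a3 (GLUT3) and is trapped by hexokinases. Neither transporter was called. Slc2a1, the stronger of the pair per length, had mean rlog values of 12.12 ± 0.30 in BALB/cN and 11.75 ± 0.24 in C57BL/6N (SD, n = 4 each), a difference of 0.37 with a 95% interval of 0.01 to 0.73. Its lowest value of each strain was in a stroma-poor cornea, 11.74 in BALB/cN cornea 2 and 11.45 in C57BL/6N cornea 3. Slc2a3 was near the bottom of the 41 genes, with a difference of 0.25. Hk1, the hexokinase of most tissues, had 11.27 to 11.50 in BALB/cN and 10.96 to 11.25 in C57BL/6N, without overlap, and its adjusted p of 0.038 (limma) missed the threshold. Hk2, the insulin- and hypoxia-responsive form, differed by 0.11, with an interval of -0.23 to 0.46, and Hk3 was barely present at a mean of 1.81 and 1.75.

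At the step that commits sugar to glycolysis 1 of 3 subunits was called. Phosphofructokinase has a liver (Pfkl), a muscle (Pfkm) and a platelet (Pfkp) subunit. Pfkl (chr10:77986947-78010083, minus strand) had rlog values of 10.57, 10.66, 10.62 and 10.62 in BALB/cN corneas 1 to 4 and of 10.01, 10.15, 9.83 and 10.03 in C57BL/6N corneas 1 to 4. All BALB/cN corneas were higher, by 0.61 on average (SE 0.0704, 1.53-fold on the rlog scale, limma adjusted p = 0.000447). Pfkm differed by 0.04, with an interval of -0.08 to 0.17.

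Pfkp had the widest mean difference of the 41 genes, 1.01, and was not called. Its values were 9.69, 9.06, 9.60 and 10.23 in BALB/cN and 8.91, 8.87, 8.57 and 8.21 in C57BL/6N, so the strains did not overlap, but the SD within a strain was 0.48 in BALB/cN and 0.32 in C57BL/6N. Its adjusted p was 0.0237 in the limma fit and 0.00142 with the stromal covariate, and 0.194 without the 2 lens-rich corneas, where the difference was 0.69. The log2 ratio of Pfkm to Pfkp within a cornea, which does not depend on library scaling, was lower in every BALB/cN cornea (0.62 ± 0.53) than in every C57BL/6N cornea (1.58 ± 0.29). The strains were barely apart, with 1.24 in BALB/cN cornea 2 and 1.34 in C57BL/6N cornea 1. This is a ratio of rlog values not divided by length, so its change between strains can be read and its sign cannot. The ratio of Pfkl to Pfkp overlapped between the strains, at 0.97 ± 0.5 in BALB/cN and 1.36 ± 0.31 in C57BL/6N. So did the ratios of Hk1 to Hk2, Eno1 to Eno2, Eno1 to Eno3, Ldha to Ldhb and Slc2a1 to Slc2a3. The end of Pfkp overlaps that of Pitrm1 on the opposite strand, as Rpe does Kansl1l and Gys1 does Ruvbl2. The libraries were strand-specific, but whether the counting used strand is not given in the sources used here.

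Among the regulators, Pfkfb3 was higher and Pfkfb2 was not called. Both make fructose 2,6-bisphosphate, the strongest activator of phosphofructokinase, and Pfkfb3 is the form with the most one-sided kinase activity. Pfkfb3 (chr2:11471433-11554077, minus strand), both upstream windows of which hold ACGTG, had 11.04, 11.36, 11.39 and 11.35 in BALB/cN and 10.56, 10.47, 10.56 and 10.62 in C57BL/6N. Every BALB/cN cornea was above every C57BL/6N cornea, and BALB/cN cornea 1 stood below the other 3. The difference was 0.73 (SE 0.0822, 1.66-fold on the rlog scale, limma adjusted p = 0.000375). Pfkfb2, some exons of which are shared with Gm29427 on the same strand, had 10.04, 10.19, 10.08 and 9.96 against 9.97, 9.92, 10.28 and 10.13, with overlap and an interval of the difference of -0.20 to 0.19. The log2 ratio of Pfkfb2 to Pfkfb3 was accordingly lower in BALB/cN, -1.22 ± 0.17 against -0.48 ± 0.14, without overlap.

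Both aldolases present, which split fructose 1,6-bisphosphate, were higher in BALB/cN. Aldoa (chr7:126795234-126800751, minus strand), the ubiquitous form, had 13.71, 13.69, 13.67 and 13.80 in BALB/cN and 13.15, 13.38, 13.17 and 13.10 in C57BL/6N. Aldoc (chr11:78322968-78327781, plus strand), known from brain, had 10.76, 10.70, 10.71 and 10.88 against 10.16, 10.18, 10.19 and 10.26. For neither gene did the strains overlap, and the differences were 0.52 for Aldoa (SE 0.0648, 1.43-fold, limma adjusted p = 0.00077) and 0.56 for Aldoc (SE 0.0582, 1.48-fold, limma adjusted p = 0.000226). Their ratio hardly moved, at 2.96 ± 0.03 in BALB/cN and 3.0 ± 0.15 in C57BL/6N. Another, much weaker Ensembl gene also named Aldoa, at mean values of 5.16 and 4.93, was not called.

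Gpi1, which interconverts glucose and fructose phosphates upstream of these steps, was also called. It (chr7:34201330-34230336, minus strand) had 11.83, 11.82, 11.85 and 11.90 in BALB/cN and 11.66, 11.62, 11.51 and 11.56 in C57BL/6N. The groups did not overlap, yet the difference was only 0.26 (SE 0.0507, 1.20-fold, limma adjusted p = 0.00952), and the call was lost whenever any 1 cornea was left out.

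**Figure D2:**
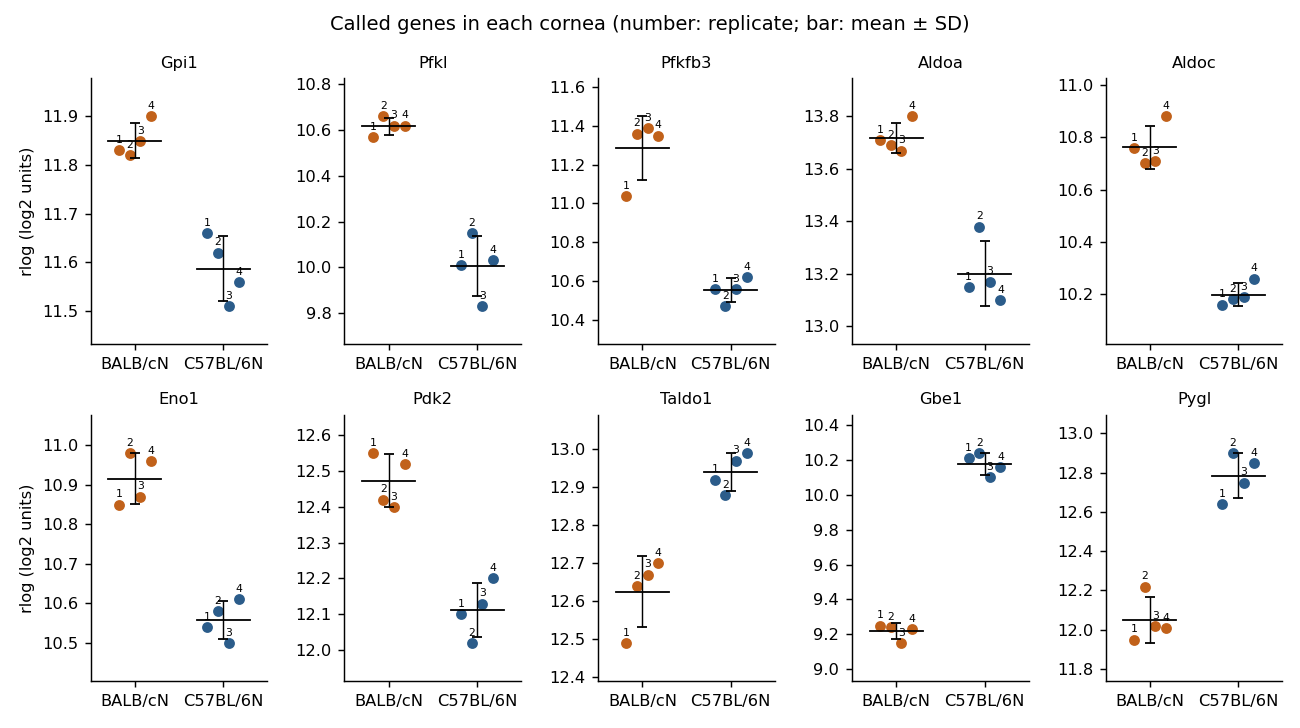
The rlog value (vertical axis, log2 units, a separate range in each panel) of the 10 called genes in each of the 4 BALB/cN and 4 C57BL/6N corneas, with the replicate number beside each point and bars for mean ± SD. In no panel do the strains overlap; Gbe1 shows the widest gap beside the spread of its corneas.

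Among the later steps of glycolysis Eno1 alone was called. Triose phosphate isomerase (Tpi1) had 11.42 to 11.66 in BALB/cN and 11.22 to 11.40 in C57BL/6N, and phosphoglycerate mutase Pgam1 had 8.11 to 8.30 and 7.31 to 7.98. Neither passed the threshold in the limma fit, with adjusted p-values of 0.0325 for Tpi1 and 0.0141 for Pgam1. The muscle form Pgam2 was close to background at 2.06 and 2.07.

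Enolase makes phosphoenolpyruvate, and Eno1, the general form, was called while the neuronal Eno2 and muscle Eno3 were not. Eno1 (chr4:150236721-150248879, plus strand) had 10.85, 10.98, 10.87 and 10.96 in BALB/cN and 10.54, 10.58, 10.50 and 10.61 in C57BL/6N, a difference of 0.36 (SE 0.0539, 1.28-fold, limma adjusted p = 0.00236). Its groups did not overlap, but the call was lost without BALB/cN cornea 4 alone among the corneas left out. Eno2 had 7.92, 7.19, 7.84 and 8.26 against 7.31, 7.33, 6.63 and 6.11, with overlap at BALB/cN cornea 2. Eno3 had 7.73, 7.36, 7.35 and 7.94 against 7.48, 7.50, 7.19 and 7.35, overlapping broadly.

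Pyruvate kinase (Pkm) and lactate dehydrogenase A (Ldha), the enzymes that finish glycolysis and make lactate, were among the 6 members highest per length in both strains and differed little. Pkm had 13.51, 13.68, 13.69 and 13.80 in BALB/cN and 13.55, 13.45, 13.38 and 13.36 in C57BL/6N, overlapping at BALB/cN cornea 1. Ldha had 12.58, 12.64, 12.74 and 12.66 against 12.57, 12.55, 12.32 and 12.40, with the strains barely apart. Their differences were 0.24 (95% interval 0.08 to 0.39) and 0.20 (0.05 to 0.34), and neither was called. Ldhb, the subunit that favours the return of lactate to pyruvate, differed by 0.72 with an adjusted p of 0.0777 (limma). The lactate exporter Slc16a3 (MCT4) was low, at 6.11 ± 0.30 and 5.81 ± 0.33.

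A group of isozymes had a wide spread within each strain. Pfkp, Eno2, Ldhb and Pygm were each highest in BALB/cN cornea 4, in which lens and pigment cell markers were high as well, and each was lower in C57BL/6N corneas 3 and 4 than in corneas 1 and 2. Without the 2 lens-rich corneas the differences of Pfkp, Eno2, Ldhb and Pygm were 0.69, 0.67, 0.42 and 0.14. Without the 3 stroma-poor corneas they were 0.95, 0.69, 0.50 and 0.58. The part of other cell types in these values was not tested beyond that.

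**Figure D3:**
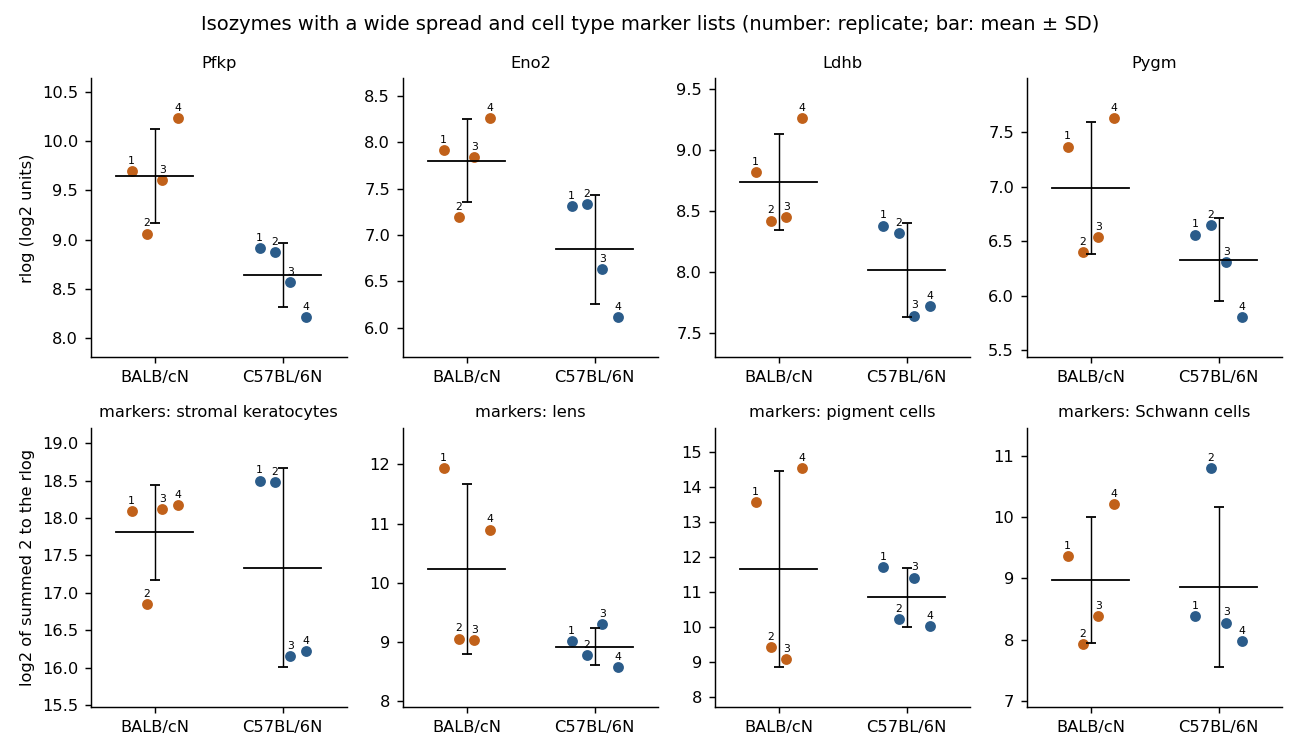
Upper row, rlog values (log2 units) of Pfkp, Eno2, Ldhb and Pygm in each cornea; lower row, summed level of stromal keratocyte, lens, pigment cell and Schwann cell markers (log2 of the summed 2 to the rlog). Numbers are replicates, bars are mean ± SD, and BALB/cN cornea 4 tops all panels of the upper row.

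Pyruvate dehydrogenase kinases hold pyruvate back from the mitochondria, and of the 4 only Pdk2 was called. Pdk2 (chr11:95026258-95041354, minus strand), by far the strongest per length, had 12.55, 12.42, 12.40 and 12.52 in BALB/cN and 12.10, 12.02, 12.13 and 12.20 in C57BL/6N. The groups did not overlap, and the difference was 0.36 (SE 0.0566, 1.28-fold, limma adjusted p = 0.00296). The call was lost without BALB/cN cornea 1, BALB/cN cornea 4 or C57BL/6N cornea 1. Pdk1 had 11.24, 11.15, 11.09 and 11.24 against 10.98, 10.98, 11.16 and 11.06 and overlapped. The log2 ratio of Pdk1 to Pdk2 was -1.29 ± 0.02 in BALB/cN and -1.07 ± 0.08 in C57BL/6N, without overlap. Pdk3 had the opposite sign, 6.99 to 7.24 against 7.36 to 7.50, with an adjusted p of 0.0236 (limma), and Pdk4 was low, at 3.93 and 3.73.

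Transketolase (Tkt) had the highest level per length of the 41 genes by a wide margin. On the scale of rlog less log2 of the joined exon length in kb it stood at 15.18 over all corneas, and the next, Aldoa, at 11.92. Tkt had rlog values of 18.07, 18.26, 18.15 and 17.98 in BALB/cN and 17.93, 18.00, 18.07 and 18.05 in C57BL/6N. The strains overlapped, and the difference of 0.10 had an interval of -0.04 to 0.24. Only quantile normalization called it, at a difference of 0.28 (limma adjusted p = 0.00111).

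Transaldolase (Taldo1), its partner in the non-oxidative arm, was the only pentose phosphate gene called. Taldo1 (chr7:141392199-141402968, plus strand) had 12.49, 12.64, 12.67 and 12.70 in BALB/cN and 12.92, 12.88, 12.97 and 12.99 in C57BL/6N. All BALB/cN corneas were lower, and the difference was -0.32 (SE 0.0567, 1.25-fold, limma adjusted p = 0.00589), a call that did not survive leaving out any 1 cornea. Rpia, which makes ribose 5-phosphate, was higher in every BALB/cN cornea, 10.11 to 10.24 against 9.89 to 10.05, and missed the threshold at an adjusted p of 0.0405 (limma). Rpe, the epimerase beside it, differed by 0.07.

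The oxidative arm showed little difference. G6pdx, the NADPH-making entry enzyme and among the 6 highest per length, had 13.10, 13.16, 13.10 and 13.07 in BALB/cN and 13.11, 13.15, 13.17 and 13.31 in C57BL/6N. The strains overlapped, and the difference of -0.08 had an interval of -0.20 to 0.04. Pgls and Pgd, the next enzymes, differed by -0.12 and -0.14, and the corneas of Pgd did not overlap, at 12.19 to 12.31 against 12.34 to 12.48. None of the 3 was called.

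**Figure D4:**
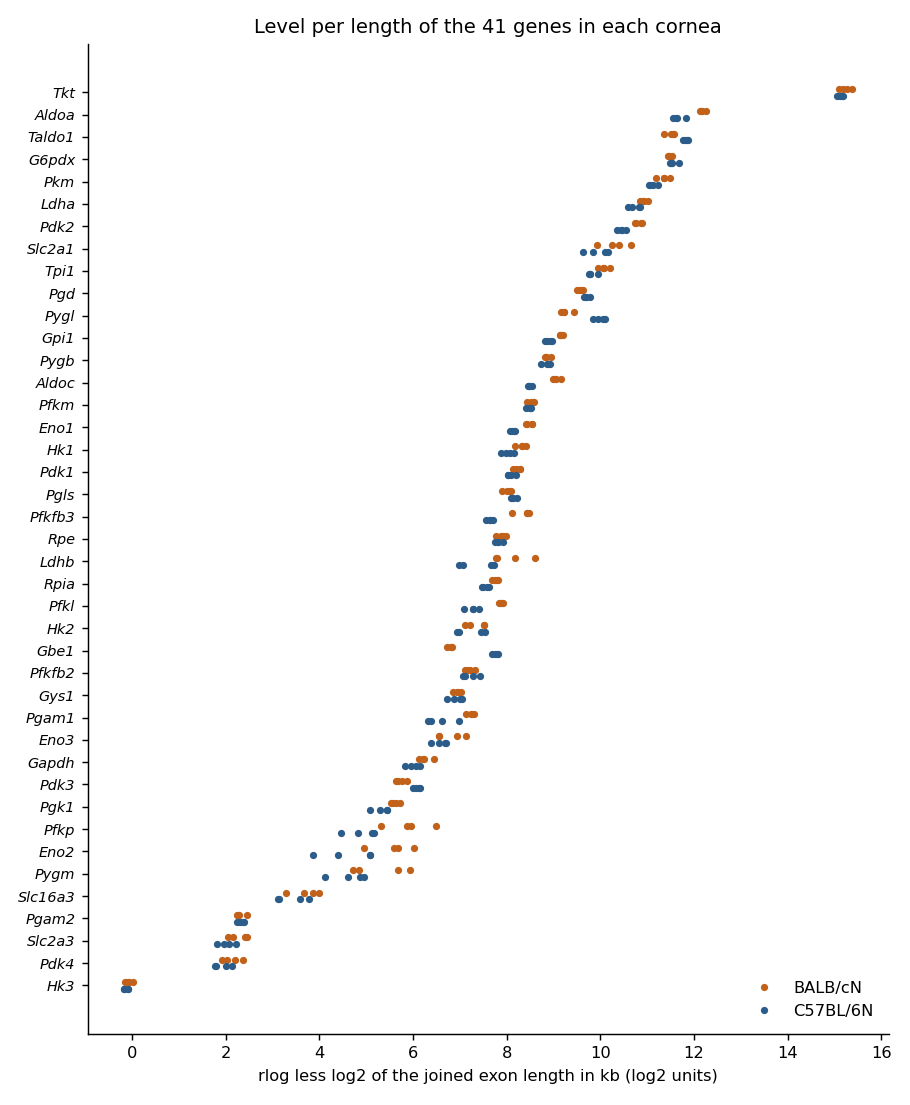
Level per length of the 41 genes in each of the 8 corneas, as rlog less log2 of the joined exon length in kb (horizontal axis, log2 units), ordered by the mean. Tkt stands alone at 15.18, and Aldoa, Taldo1, G6pdx, Pkm and Ldha follow.

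In the order of levels per length, the 6 highest were Tkt, Aldoa, Taldo1, G6pdx, Pkm and Ldha in both strains. Aldoa and Taldo1 changed places: in BALB/cN Aldoa stood at 12.18 and Taldo1 at 11.50, in C57BL/6N at 11.66 and 11.82. Corneas of Taldo1 and G6pdx overlapped in BALB/cN, and those of Taldo1 and Aldoa in C57BL/6N. The lowest were Slc16a3, Pgam2, Slc2a3, Pdk4 and Hk3. With the longest transcript as length, the same 6 genes led and no gene moved by more than 3 places.

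Of the glycogen enzymes 2 were called, both lower in BALB/cN, and Gbe1 had the largest difference of the 10 called members. Gbe1, the branching enzyme that makes glycogen compact and soluble (chr16:70313949-70569716, plus strand), had 9.25, 9.24, 9.15 and 9.23 in BALB/cN and 10.21, 10.24, 10.10 and 10.16 in C57BL/6N. Its strains lay far apart beside an SD of 0.05 and 0.06 within a strain, with a difference of -0.96 (SE 0.0574, 1.95-fold lower, limma adjusted p = 6.13e-06). Gbe1 and Aldoc were the only members called under every alternative except the empirical null.

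Pygl, the liver form of glycogen phosphorylase, which releases glucose 1-phosphate, was the other. Pygl (chr12:70190811-70231488, minus strand) had 11.95, 12.22, 12.02 and 12.01 in BALB/cN and 12.64, 12.90, 12.75 and 12.85 in C57BL/6N, without overlap. The difference was -0.73 (SE 0.0765, 1.66-fold lower, limma adjusted p = 0.000238). The brain form Pygb had 11.11, 11.08, 11.12 and 11.21 against 11.18, 11.20, 11.13 and 11.01, with an interval of -0.13 to 0.13 around no difference. The log2 ratio of Pygb to Pygl was therefore -0.92 ± 0.15 in BALB/cN and -1.65 ± 0.16 in C57BL/6N. Glycogen synthase Gys1 differed by 0.03, and the muscle form Pygm, at 6.99 ± 0.61 and 6.33 ± 0.38, was not called.

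Some glycolytic genes have near-identical copies elsewhere in the genome, at 95% identity or more over at least 200 bases, and their own values are uncertain. Gapdh, a housekeeping enzyme, stood at only 8.30 and 8.05, and had 78 copies, of which 68 were not listed at 0 in all corneas. Its own values, 8.49, 8.18, 8.28 and 8.26 in BALB/cN and 8.11, 8.20, 8.01 and 7.88 in C57BL/6N, overlapped. The copy Gm13394, singled out after its values were seen, had 10.56, 10.78, 10.71 and 10.65 in BALB/cN and 6.61, 6.17, 6.23 and 6.11 in C57BL/6N. In BALB/cN the copy was thus listed above the gene itself, and in C57BL/6N below it. The copy Gm5559 had means of 9.30 and 8.83.

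Summed over gene and copies (2 to the rlog added, then log2), Gapdh came to 11.50 in BALB/cN and 10.10 in C57BL/6N, a difference of 1.40 (limma adjusted p = 3.26e-07) in place of 0.25. This summed difference rests largely on Gm13394, which had means of 10.68 and 6.28, a difference of 4.40. The sum without that copy was not computed. The gene itself held 11% of that sum in BALB/cN and 24.3% in C57BL/6N. Which locus the reads came from cannot be told from these values, and reads were aligned to a separate pseudo-genome for each strain.

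Eno1 had 3 copies. Eno1b averaged 10.51 in BALB/cN and 9.70 in C57BL/6N, and Gm4735, singled out after its values were seen, averaged 5.69 and 8.18, the opposite sign. Summed with its copies, Eno1 differed by 0.38, close to the 0.36 of the gene alone, at an adjusted p of 0.0145 (limma). Gpi1 with its copy Gm1840 kept its call, at 0.25 (limma adjusted p = 0.00485). For Pgam1, Pgk1, Tpi1, Pkm, Ldha and Ldhb the summed differences were 0.47, 0.37, 0.26, 0.23, 0.20 and 0.69, and none was called. Pgk1 itself, at 6.77 and 6.48, was listed below its copy Pgk1-rs7, at 7.50 and 7.07, and Pgam1 below Pgam1-ps2, at 9.07 and 8.68.

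**Figure D5:**
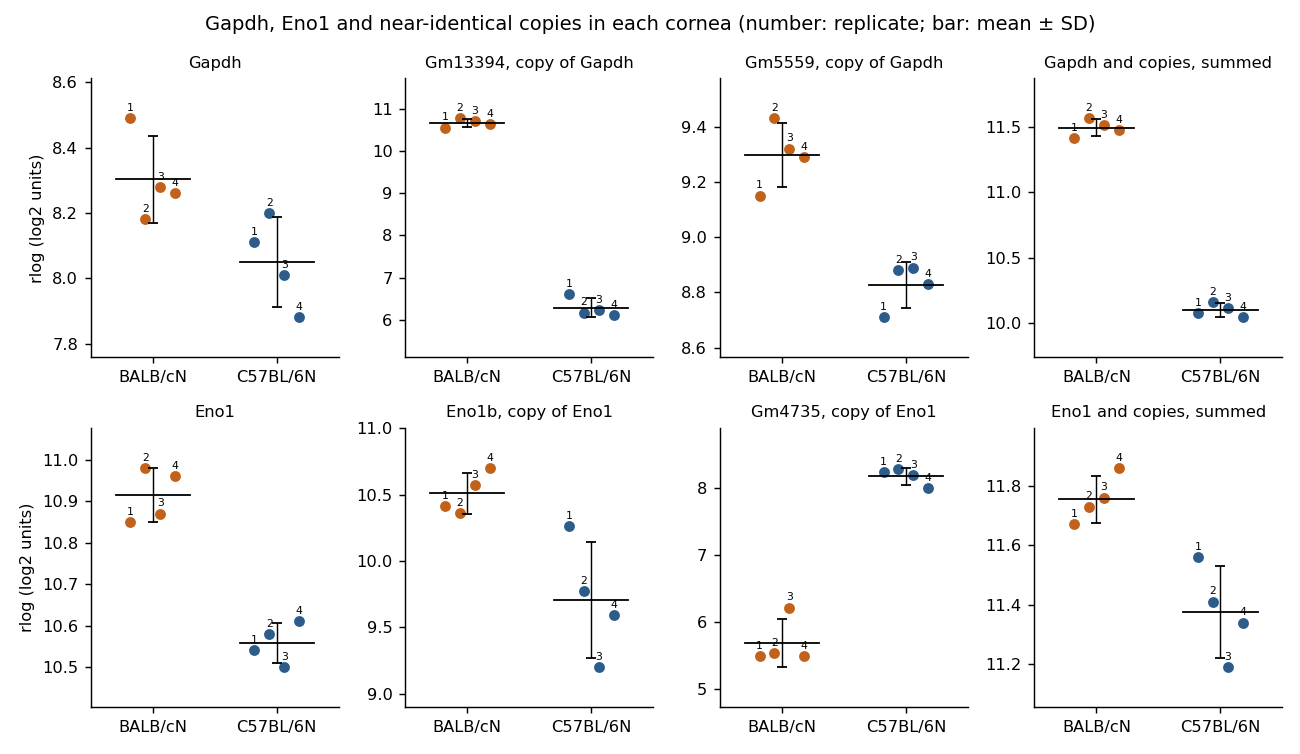
The rlog values (log2 units, a separate range in each panel) of Gapdh and Eno1, of their copies Gm13394, Gm5559, Eno1b and Gm4735, and of gene and copies summed, in each cornea. Gm13394 and Gm4735 show the widest gaps between strains, in opposite directions; numbers are replicates and bars are mean ± SD.

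Of 66 further genes of glucose metabolism, 57 were tested and 4 called (7.02%), near the 5.74% of all genes. Pdha1, the catalytic subunit of the pyruvate dehydrogenase complex that Pdk2 switches off, had 11.07, 11.04, 10.90 and 11.10 in BALB/cN and 11.59, 11.52, 11.47 and 11.64 in C57BL/6N, a difference of -0.53 (limma adjusted p = 0.000564). Mpc2, a subunit of the carrier that brings pyruvate into mitochondria, differed by -0.40, and the phosphoglucomutase family gene Pgm2 by -0.36. Sord, the sorbitol dehydrogenase of the polyol pathway, was higher in BALB/cN, by 0.31. The median over the 57 was 0.03.

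Of 18 regulators of glucose metabolism 1 was called (5.56%), again near the share of all genes: Myc, a transcription factor that drives many glycolytic genes, had 10.40 to 10.51 in BALB/cN and 10.77 to 11.02 in C57BL/6N, a difference of -0.42 (limma adjusted p = 0.00263). Of 18 hypoxia-responsive genes outside glycolysis 4 were called (22.2%, against 5.74% of all genes), in both directions. The study had already reported Vegfa and Angptl4 among these as different in the same data. The list was chosen with earlier results known, so its share is not independent of these data. Vegfa, the vascular growth factor, had 10.05 to 10.53 in BALB/cN and 9.15 to 9.68 in C57BL/6N, a difference of 0.87, and Ankrd37 differed by 0.86. Egln3, an oxygen-sensing prolyl hydroxylase, differed by -0.54 and Angptl4, a lipase inhibitor, by -0.70. Of 10 targets of NRF2 outside the pentose phosphate pathway, which respond to oxidative stress, 1 was called (10%), the thioredoxin reductase Txnrd1, with a difference of -0.35. The medians of these 3 lists were 0.03, 0.16 and 0.07.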

How the data were processed

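RNA-seq covered 4 corneas each of BALB/cN and C57BL/6N. The authors aligned reads with TopHat2 2.1.1 to strain pseudo-genomes of GRCm38, counted them per Ensembl gene with HTSeq 0.7.1, and deposited values from the rlog function of DESeq2 1.30 (log2 scale, library size normalized), with 0 columns left unused here. The deposited table has no counts and none were used, so depth is not given here. The strain comparison used limma 3.58.1 in R 4.3.3, eBayes with a variance trend, over 25402 genes with a mean rlog of at least 0, Benjamini-Hochberg adjustment over all of them and a threshold of 0.01; single genes also with an exact permutation test (scipy 1.17.1), which cannot go below 0.0286. Names, positions and exon lengths came from GENCODE M21 (GRCm38), which held 31302 of 31314 genes not at 0 throughout. Copies were found with blastn 2.17.0. Upstream sequences were those of RefSeq (GRCm38.p6). The members and lists were chosen with earlier results of these data known. Values in every cornea were given for called members, the 6 highest per length in each strain and partners in an isozyme pair with a called gene, and for further lists for up to 5 called genes. The fit was tested on simulated data. Genes varied independently there, so spread shared between genes, as with cell composition, was not covered. Alternatives left out each cornea or the corneas that stood apart, and changed the scaling, the filter, the variance model, the threshold and the covariates.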

Additional observations from a re-analysis of the deposited data

Results flagged for a closer look

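Each of the 41 genes was screened in each strain for a cornea far from the other 3, as the gap to its nearest neighbour divided by the range. Of 82 groups 4 passed the critical value of Dixon's test at the 95% level, against 4.1 that chance alone gives. Pfkfb3 in BALB/cN cornea 1 had 11.04, below the nearest value of 11.35 (ratio 0.885), and without that cornea the difference between strains was larger. Gbe1 in BALB/cN cornea 3 had 9.15, below 9.23 (ratio 0.870). Pfkm in C57BL/6N cornea 4 had 10.16, below 10.24 (ratio 0.935), and Tpi1 in C57BL/6N cornea 2 had 11.40, above 11.24 (ratio 0.837). Both calls among these genes, of Pfkfb3 and Gbe1, held when any 1 cornea was left out.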

How the results depend on the processing

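Of the 10 calls, Aldoc and Gbe1 were kept under 21 of 22 alternatives, Pfkl, Pfkfb3 and Pygl under 20, Aldoa under 18, Eno1 under 15 of 23, Pdk2 under 14, and Taldo1 and Gpi1 under 8 each. No called gene changed sign. With an empirical null (SD 1.68) 0 members were called, 0 higher and 0 lower. With the replicate number as a block, 5 were called, 3 higher in BALB/cN. Equal numbers did not pair corneas: their deviations from the strain means correlated at 0.305, -0.53, -0.203 and -0.454 for numbers 1 to 4. With the lens covariate there were 6, 4 of them higher. With the stromal covariate there were 17, 13 higher, and at an adjusted p of 0.05 there were 16, 12 higher. Without the 3 stroma-poor corneas, chosen after seeing the data as was the next, 5 were called, 3 higher, and without the 2 lens-rich corneas 3 were called, 2 higher and 1 lower. Leaving out 1 cornea gave 6 to 9 calls, 4 to 7 higher, with 6 calls and 4 higher without BALB/cN cornea 4. All genes called fell to 554 with the block, 821 with the lens covariate, 447 without the lens-rich and 852 without the stroma-poor corneas. They were 953 to 1163 with 1 cornea left out and 958 under median centring. At an adjusted p of 0.05 they were 2842 and with the stromal covariate 2404, from 1458. The cause was not tested, beyond the smaller number of corneas where some were left out.

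The median difference of the members, 0.22, became 0.149 under median centring, where that of all genes was -0.0661. It was 0.174 with the stromal, 0.173 with the muscle and 0.177 with the lens covariate, 0.169 without the stroma-poor and 0.178 without the lens-rich corneas, and 0.18 to 0.256 with 1 cornea left out. The Aldoa to Aldoc ratio, which differed by -0.04, ranged from -0.0986 to 0.0209 when 1 cornea was left out and turned positive without C57BL/6N cornea 2. Signs also turned for uncalled genes with differences near 0. Under median centring Hk3 became -0.0175, Pfkm -0.0311, Rpe -0.0024, Gys1 -0.0464 and Pygb -0.0732, and under quantile normalization Gys1 became -0.0179. With the stromal, muscle and lens covariates Pfkfb2 became 0.0509, 0.0429 and 0.0274, and Pygb -0.0253, -0.0237 and -0.0204. Without the stroma-poor corneas Hk2 became -0.109, Pfkfb2 0.085 and Pygb -0.0433, and without the lens-rich corneas Pfkfb2 became 0.0616, Pygb -0.0288 and Eno3 -0.0237. Leaving out 1 cornea gave ranges of -0.0549 to 0.0639 for Pfkfb2, -0.0656 to 0.008 for Pgam2, -0.0374 to 0.069 for Gys1 and -0.0383 to 0.0249 for Pygb. The other alternatives left the count of calls between 7 and 14. No counts were used, so the counting error of weak genes such as Hk3 and Pgam2 is not given.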
